A study of Homo sapiens with 8 samples.

Results

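The 10 genes described here encode actins, the tropomyosins that wrap around actin filaments, and a pair of proteins that work on those filaments. They are ACTB, ACTG1, ACTA2, ACTC1, TPM1, TPM2, TPM3, TPM4, MYL6 and TAGLN. They were chosen by symbol, as the rows that carry these names in the transcript count table of the combined assembly, a rule that uses names alone. The rule found 56 transcript models of 96614 in the table, which belong to 10 of 20195 named genes. TPM1 has 20 of the models, ACTG1 and TPM2 have 8 each, ACTB has 6, MYL6 has 4, TAGLN has 3, ACTA2, TPM3 and TPM4 have 2 each, and ACTC1 has 1.

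The samples are 8 PacBio long-read libraries of polyadenylated RNA from H1 cells, a long established line of human embryonic stem cells, in 4 groups of 2 repeats. The hPSC group is the undifferentiated line on Matrigel in mTeSR1. The other groups were collected after 5 days of differentiation. Endoderm cultures received WNT3A with Activin A at 100 ng/ml in RPMI with a little serum. Mesoderm cultures received VEGF and BMP4 at 100 ng/ml and bFGF at 10 ng/ml, with Activin A at 100 ng/ml in the opening day alone. Ectoderm cultures received the inhibitors A83-01, PNU-74654 and Dorsomorphin, each at 2 µM, in KOSR medium. All groups come from this 1 line. Nothing in the labels says whether repeats were separate cultures, so p-values measure the spread between these libraries, which may be technical.

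Actin assembles into filaments that give a cell its shape and that myosin pulls on. ACTB and ACTG1 are the cytoplasmic actins of nearly every cell, ACTA2 is the smooth muscle actin, and ACTC1 is the cardiac actin, which is also made in early embryonic tissues. The tropomyosin genes TPM1 to TPM4 each make several proteins by using alternative first exons, alternative internal exons and alternative last exons, and the form that coats a filament affects which myosins and binding proteins can reach it. MYL6 is the essential light chain of non-muscle and smooth muscle myosin, and TAGLN (transgelin) bundles actin in smooth muscle. The transcription factor SRF and its actin-sensing MRTF partners drive many of these genes through a short promoter element, the CArG box.

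A few alternative exons carry the splice choices measured below. Their sequences were read from the GENCODE 29 transcripts, whose positions are on GRCh38. MYL6 can add an alternative exon of 45 bases at chr12:56160626-56160670 on the plus strand. Its stop codon then comes early, so the reading frame ends in a different run of 29 bases. The pair of coding ends is shown 5′ to 3′ with the 15 positions that differ in capitals, and 48.3% of positions are identical.
MYL6 coding end with the alternative exon, chr12:56160626-56160654: CgTtTgtGAgGCATAtCctgTCGggGtga
MYL6 coding end without it, chr12:56161387-56161415: AgCtCgtCCgCATGGtGctgAATggCtga

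TPM2, on the minus strand of chromosome 9, uses either exon 6a or exon 6b. Exon 6a is known from smooth muscle and non-muscle cells and exon 6b from striated muscle. Both are 76 bases long, and the capitals mark the 36 positions at which the pair differs.
TPM2 exon 6a, chr9:35685064-35685139: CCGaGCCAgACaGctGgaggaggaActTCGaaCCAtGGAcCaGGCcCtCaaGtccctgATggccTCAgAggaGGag
TPM2 exon 6b, chr9:35684732-35684807: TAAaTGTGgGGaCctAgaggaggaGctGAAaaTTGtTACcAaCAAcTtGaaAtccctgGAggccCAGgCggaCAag

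TPM1, on the plus strand of chromosome 15, has exons 2a and 2b behind its distal first exon. Smooth muscle is known for using 2a in place of 2b. Each is 126 bases long, and the capitals mark the 64 positions that differ.
TPM1 exon 2a, chr15:63043706-63043831: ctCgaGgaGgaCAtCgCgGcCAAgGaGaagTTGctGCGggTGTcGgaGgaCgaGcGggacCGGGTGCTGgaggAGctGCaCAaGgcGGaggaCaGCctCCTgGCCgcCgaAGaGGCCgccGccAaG
TPM1 exon 2b, chr15:63044027-63044152: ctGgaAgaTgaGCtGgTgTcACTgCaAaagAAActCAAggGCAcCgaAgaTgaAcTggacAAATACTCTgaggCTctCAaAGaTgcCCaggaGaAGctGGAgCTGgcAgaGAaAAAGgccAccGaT

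Libraries held 503840 to 1180888 assigned reads, so a gene with no read could still stand at up to 2.54 to 5.95 CPM, the level that 3 reads would give. CPM is the count scaled to a fixed library total. The repeats of hPSC stood further apart over genes (chi-square divided by its degrees of freedom, 7.63) than those of the other groups (1.59 to 2.18). The mean length of the assembled transcript behind a read was 4406 and 4650 nt in ectoderm, 3765 and 3840 nt in mesoderm, and 2975 to 3298 nt in hPSC and endoderm. Summed markers of pluripotency, ectoderm, endoderm and mesoderm were highest in the groups of those names, with SOX1 not among the genes of the table. Ectoderm markers also summed to 416 and 422 CPM in endoderm, against at most 139 in hPSC and 791 and 1005 in ectoderm, and most of the endoderm sum was OTX2. Mesoderm markers summed to 148 and 214 CPM in endoderm, where 2 of 5 tested ectoderm markers and 4 of 5 tested mesoderm markers were called higher than in hPSC. The part of other cell types in the endoderm results was not tested. In the mesoderm libraries mesoderm markers summed to 1058 and 1151 CPM, and 3 of 5 tested were higher and 1 lower than in hPSC. MIXL1 and FOXF1 were at 0 in mesoderm. There 7 markers of amnion and trophoblast summed to 5189 and 5686 CPM, against 4.14 to 80.3 CPM in the other libraries.

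Compared with hPSC, ectoderm stood lower in 7 of the 10 genes and higher in 1, endoderm higher in 6 and lower in 0, and mesoderm higher in 4 and lower in 0. These are calls by edgeR's quasi-likelihood test at an adjusted p under 0.05 in a fit of all 8 libraries. Among the 10847 genes tested, 24.8% were lower and 23.8% higher in ectoderm (48.6% in all), 13.4% higher and 13.7% lower in endoderm (27.2% in all), and 16.9% higher and 18.2% lower in mesoderm (35.1% in all). The median log2 difference of all tested genes lay between -0.13 and 0.01. No lower difference in endoderm or mesoderm reached an unadjusted p under 0.05 with edgeR, and DESeq2 also called 0 lower in both. The 3 comparisons share the hPSC libraries. Without hPSC repeat 1 the mesoderm count became 4 higher and 3 lower, the added genes being ACTB, ACTG1 and TPM3. In bulk RNA, fewer cells of a type and less RNA per cell cannot be told apart.

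Directly between layers, ectoderm was lower than endoderm in 7 of the 10 genes and higher in 0, where 29.9% of tested genes were lower and 33.1% higher (63.1% in all). Ectoderm was also lower than mesoderm in 7 and higher in 0, against 17.2% lower and 18.2% higher among all genes (35.4% in all). Mesoderm was lower than endoderm in 6 and higher in 2, against 23.2% lower and 23.9% higher (47.1% in all). The 2 higher genes were ACTA2 and TPM1. In the ectoderm pairs, 0 genes were higher at an unadjusted p under 0.05 with edgeR, and 0 with DESeq2. Some of these calls rest on single libraries. MYL6 in ectoderm against mesoderm was not called without ectoderm repeat 1, ectoderm repeat 2 or mesoderm repeat 1. In mesoderm against endoderm the TPM3 call was lost when any 1 of the 4 libraries was left out, and the ACTA2 call was lost without endoderm repeat 2.

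**Figure D1:**
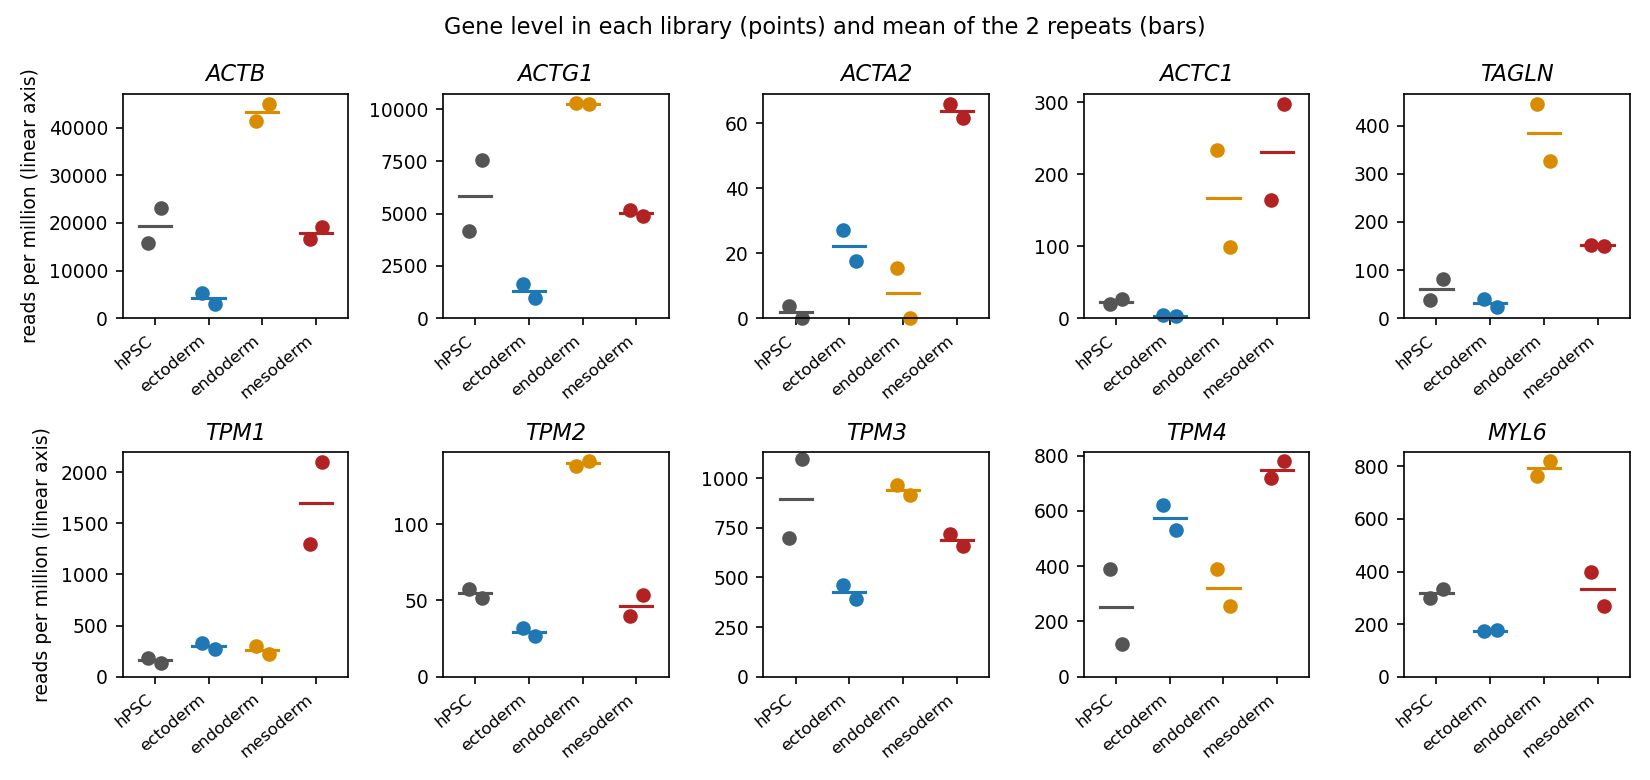
Level of each of the 10 genes by group, in CPM on a linear axis of its own, with 1 point per library and a bar at the mean of the 2 repeats. ACTB, ACTG1 and TAGLN stand highest in endoderm, TPM1 and ACTA2 highest in mesoderm, and ACTC1 lowest in ectoderm.

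The cytoplasmic actins were lowest in ectoderm and highest in endoderm. ACTB (ENSG00000075624.17, chr7:5527147-5563784 on GRCh38, minus strand) had 15675 and 23021 CPM in hPSC, 16673 and 19193 in mesoderm, 41422 and 45054 in endoderm and 5278 and 3052 in ectoderm. Both ectoderm libraries lay below all others and both endoderm libraries above all others, while hPSC and mesoderm overlapped. ACTB was 6.4-fold lower in ectoderm than in hPSC, a log2 difference of -2.68 ± 0.49 (SE) with an edgeR adjusted p of 0.000475. In endoderm it was 2.75-fold higher (log2 1.46 ± 0.47, edgeR adjusted p = 0.0305), a call lost without endoderm repeat 2, when the edgeR adjusted p was 0.0693. Mesoderm differed from hPSC by -0.38 ± 0.46, within the spread (edgeR adjusted p = 0.543).

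ACTG1 (ENSG00000184009.13, chr17:81509971-81523847, minus strand) followed the same order, with 4190 and 7551 CPM in hPSC, 5155 and 4883 in mesoderm, 10286 and 10234 in endoderm and 1638 and 945 in ectoderm. The endoderm libraries again lay above all others and the ectoderm libraries below. Ectoderm was lower than hPSC, at a log2 difference of -2.66 ± 0.45 (edgeR adjusted p = 0.000269), and at -1.90 without hPSC repeat 2. The endoderm difference of 1.09 ± 0.43 missed the threshold at an edgeR adjusted p of 0.0714 and the mesoderm value was -0.52 ± 0.42. Between layers all pairs passed the test for both genes, although ACTG1 in mesoderm against endoderm did not without mesoderm repeat 2 (edgeR adjusted p = 0.0536), with ectoderm 17.6-fold below endoderm for ACTB and 13.4-fold for ACTG1.

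Reads per kb of transcript put 3.18 to 4.60 ACTB reads beside each ACTG1 read across the 8 libraries, while the CPM of ACTB spanned 3052 to 45054. By that measure ACTB made up 76% to 82.0% of reads from the 4 actin genes and ACTG1 17.8% to 23.9%. Both genes, like TPM3 and MYL6, have near-identical processed copies in the genome, and how reads with several placements were counted is not given in the sources used here, so their levels are uncertain to that extent. One ACTB model of 6 exons, ENST00000646664.1, held 95% to 97.7% of the gene's reads in the group means. ACTG1 was divided between ENST00000576544.6, at 42.7% to 46.8%, and ENST00000573283.7, at 46.1% to 51.4%. Both match reference transcripts. An exon of ENST00000573283.7 spans an intron of another ACTG1 model, which is what holding an intron means here.

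The muscle actins followed other patterns. ACTC1 (ENSG00000159251.8, chr15:34788095-34795726, minus strand) had 19.3 and 26.7 CPM in hPSC, 164 and 298 in mesoderm, 234 and 98.9 in endoderm and 4.23 and 3.10 in ectoderm. Endoderm and mesoderm overlapped each other and lay above both other groups, and ectoderm lay below all. ACTC1 was 8.88-fold higher in endoderm (log2 3.15 ± 0.47, edgeR adjusted p = 0.000190) and 8.36-fold higher in mesoderm (3.06 ± 0.47, edgeR adjusted p = 0.000158) than in hPSC. In ectoderm, which had 5 and 3 reads, it was lower, at a log2 difference of -3.00 ± 0.67 (edgeR adjusted p = 0.00204). Without endoderm repeat 1 the endoderm value was 2.54. The log2 difference between mesoderm and endoderm was -0.09 ± 0.39.

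ACTA2 (ENSG00000107796.13, chr10:88935074-88991339, minus strand) was a gene of few reads. It had 2 and 0 reads in hPSC, 35 and 31 in mesoderm, 9 and 0 in endoderm and 32 and 17 in ectoderm, which is 65.9 and 61.5 CPM in mesoderm and 27.1 and 17.6 CPM in ectoderm. Mesoderm lay above every other library, and hPSC and endoderm overlapped. The pooled CPM was 34.5 times higher in mesoderm than in hPSC (exact 95% counting interval 9.17 to 291) and 12.3 times higher in ectoderm (3.24 to 105). With edgeR, mesoderm was higher (adjusted p = 0.000629), as was ectoderm (adjusted p = 0.0178), although without ectoderm repeat 1 the ectoderm call was lost at an adjusted p of 0.0842. Endoderm, at 2.29 ± 1.26, did not pass against hPSC (edgeR adjusted p = 0.195), and the value was -3.61 without endoderm repeat 1, which held all 9 endoderm reads. The ectoderm and mesoderm difference of -1.68 ± 0.47 (edgeR adjusted p = 0.0127) was lost in 7 of 15 alternative settings, 4 of which leave out 1 ectoderm or mesoderm library.

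The first exon of ACTA2 was split between these few reads as follows, with no test. In ectoderm 21 of 32 and 9 of 17 reads began at a distal first exon at chr10:88990939-88991224, in a model that is not in the reference annotation. In mesoderm 2 of 35 and 4 of 31 did, the others starting at the proximal exon at chr10:88952731-88952773. The distal model was assembled in 1 group alone. RefSeq lists an ACTA2 start site upstream of it, at chr10:88991337. With 2 hPSC reads and 9 endoderm reads no test was made. All ACTA2 reads come from models that overlap ACTA2-AS1 on the opposite strand, and 31.0% also overlap FAS there. Strand use in counting is not given in the sources used here, so reads of these partners cannot be told apart from ACTA2's.

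TAGLN and MYL6 were both highest in endoderm and lowest on average in ectoderm. TAGLN (ENSG00000149591.17, chr11:117199321-117204782, plus strand) had 38.5 and 81.8 CPM in hPSC, 153 and 151 in mesoderm, 446 and 326 in endoderm and 39.0 and 22.7 in ectoderm. Endoderm lay above mesoderm and mesoderm above the rest, and hPSC and ectoderm overlapped. Endoderm was 7.77-fold higher than hPSC (log2 2.96 ± 0.41, edgeR adjusted p = 9.43e-05), with log2 values of 2.42 to 3.81 when 1 library was left out, the highest without hPSC repeat 2. Mesoderm was at 1.05 ± 0.41, short of the threshold (edgeR adjusted p = 0.0588). The ectoderm call, -1.42 ± 0.44 with an edgeR adjusted p of 0.0141, was lost without hPSC repeat 2 (-0.49, edgeR adjusted p = 0.378), without ectoderm repeat 2 and on library totals. The main TAGLN model, at 88.8% to 96.4% of reads, runs to position 117207464, past the gene's annotated end, and all TAGLN models overlap PCSK7 on the opposite strand.

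MYL6 (ENSG00000092841.19, chr12:56158161-56163496, plus strand) had 300.4 and 334 CPM in hPSC, 397 and 269.9 in mesoderm, 765 and 822 in endoderm and 172 and 176 in ectoderm. The endoderm libraries lay above and the ectoderm libraries below all others, and hPSC lay within the mesoderm range. Endoderm was 3.12-fold higher than hPSC (log2 1.64 ± 0.31, edgeR adjusted p = 0.00127) and ectoderm 2.48-fold lower (-1.31 ± 0.31, edgeR adjusted p = 0.00325). Mesoderm was at -0.18 ± 0.31. All 4 MYL6 models, with 100% of the gene's reads, overlap exons of the neighbouring light chain gene MYL6B on the same strand. The assignment of reads between these genes was not tested.

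TPM1 and TPM4 were highest in mesoderm, and TPM2 and TPM3 in endoderm and lowest in ectoderm by their group means. TPM1 (ENSG00000140416.24, chr15:63042632-63071915, plus strand) had 181 and 135 CPM in hPSC, 1294 and 2098 in mesoderm, 297 and 223 in endoderm and 326 and 269.8 in ectoderm. The mesoderm libraries stood far above all others. Mesoderm was 9.18-fold higher than hPSC (log2 3.20 ± 0.34, edgeR adjusted p = 5.44e-06), 6.48-fold above ectoderm and 4.40-fold above endoderm. The mesoderm call against hPSC held in all 15 alternatives, with log2 values from 2.88 to 3.58. Endoderm was also called higher than hPSC (1.06 ± 0.33, edgeR adjusted p = 0.0265), but not without either endoderm library (edgeR adjusted p up to 0.136) or on library totals.

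TPM2 (ENSG00000198467.16, chr9:35681992-35690121, minus strand) had 57.8 and 51.6 CPM in hPSC, 39.5 and 53.6 in mesoderm, 138 and 142 in endoderm and 32.2 and 26.9 in ectoderm. Endoderm was above and ectoderm below all other libraries. Endoderm was higher than hPSC by 1.69 ± 0.31 (edgeR adjusted p = 0.000930) and ectoderm lower, at -1.30 ± 0.33 (edgeR adjusted p = 0.00480), the latter lost without ectoderm repeat 2 (edgeR adjusted p = 0.0907). Mesoderm was at -0.47 ± 0.34.

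TPM3 (ENSG00000143549.22, chr1:154155304-154194648, minus strand) had 697 and 1096 CPM in hPSC, 719 and 657 in mesoderm, 963 and 913 in endoderm and 462 and 390 in ectoderm. Ectoderm lay below all others and was lower than hPSC, at a log2 difference of -1.54 ± 0.34 (edgeR adjusted p = 0.00183) that was -0.91 without hPSC repeat 2, while endoderm (0.36 ± 0.33) and mesoderm (-0.66 ± 0.33) missed the threshold. TPM4 (ENSG00000167460.17, chr19:16067021-16103005, plus strand) had 389 and 117 CPM in hPSC, 717 and 780 in mesoderm, 391 and 254 in endoderm and 620 and 529 in ectoderm. The hPSC and endoderm ranges overlapped, and mesoderm lay above all other libraries. Mesoderm was higher than hPSC by 1.40 ± 0.39 (edgeR adjusted p = 0.0108), a call lost without either mesoderm library at edgeR adjusted p up to 0.0763, and the value was 2.27 without hPSC repeat 1. Ectoderm, at 0.83 ± 0.38 from hPSC, missed the threshold for TPM4 (edgeR adjusted p = 0.0812), but was called higher in 6 of 15 alternatives, with log2 values of 0.36 to 1.71 over all of them. The other pairs of groups did not pass the test for TPM4 with all 8 libraries.

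**Figure D2:**
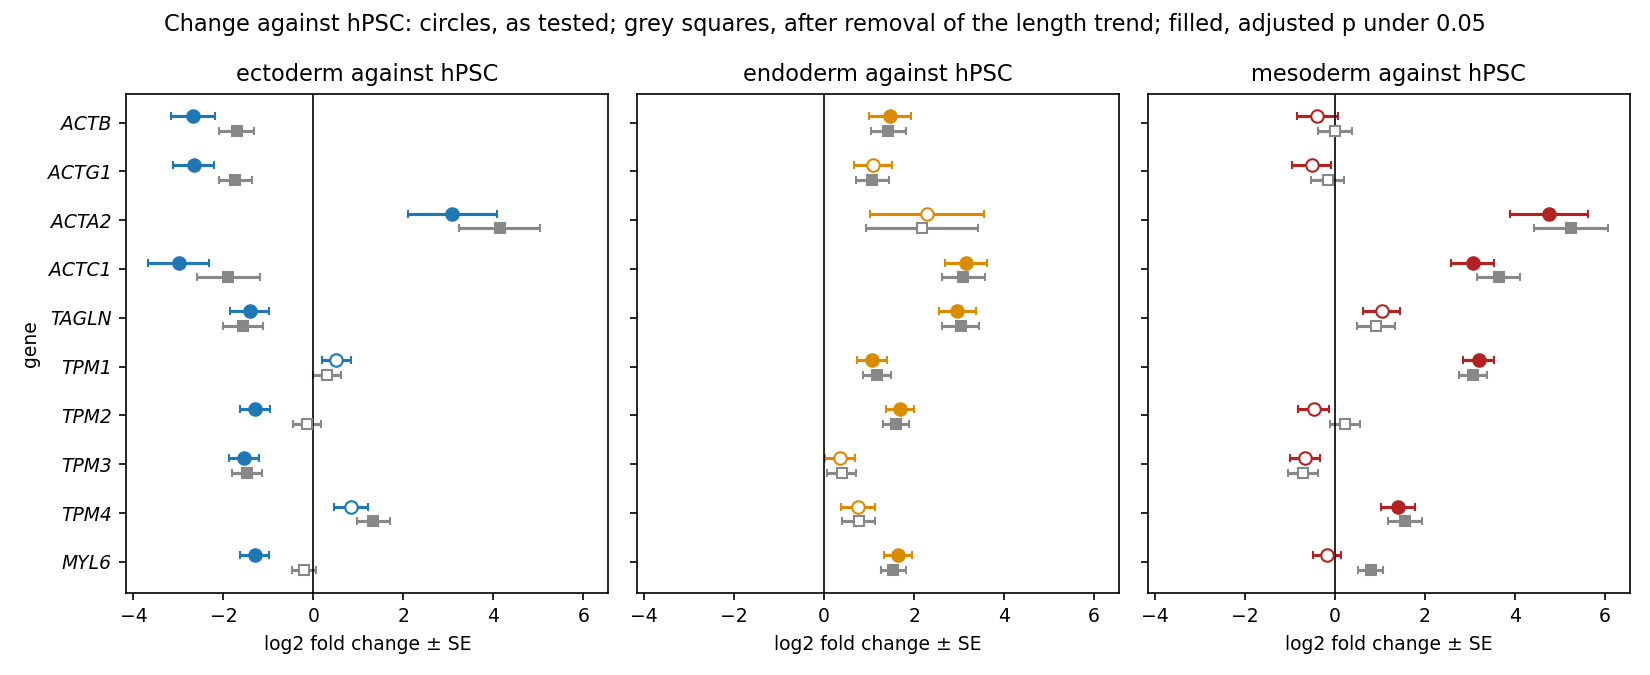
Log2 difference of each of the 10 genes from hPSC in ectoderm, endoderm and mesoderm, with bars of 1 standard error. Circles are the edgeR fit, grey squares the fit with the length trend removed, and filled marks have an adjusted p under 0.05. Ectoderm circles lie mostly left of 0 and endoderm circles right of 0, and the largest mesoderm values are those of ACTA2, TPM1 and ACTC1.

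Transcript length went with the ectoderm differences. Of all tested genes, those with a mean transcript of 1000 to 2000 nt had a median log2 difference of -1.36 between ectoderm and hPSC, with 60.6% called lower, and those under 1000 nt a median of -1.20, with 63.8% called lower. Genes of 4000 nt or more had a median of 0.74. ACTB, ACTG1, ACTA2, ACTC1 and TPM2 fall in the class of 1000 to 2000 nt, and MYL6, at 676 nt, in the shortest. In mesoderm the shortest class had a median of -1.03 against hPSC. Between ectoderm and endoderm, 58.7% of genes of 1000 to 2000 nt and 64.9% of those under 1000 nt were called lower in ectoderm.

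A fit in which the trend with length was removed, chosen after seeing the data, kept ectoderm calls for ACTB (-1.70), ACTG1 (-1.73), ACTC1 (-1.89), TPM3 (-1.48) and TAGLN (-1.56). In that fit TPM2 was at -0.14 (edgeR adjusted p = 0.755) and MYL6 at -0.21 (edgeR adjusted p = 0.575) in ectoderm, so both calls were lost, and TPM4 was called higher there at 1.33. MYL6 in mesoderm changed sign, from -0.18 to 0.80 (edgeR adjusted p = 0.0366). The higher calls of ACTC1, TPM1, TPM4 and ACTA2 in mesoderm held. With the trend removed, ectoderm was lower than endoderm in 8 genes and higher in 1, ACTA2 (log2 1.97, edgeR adjusted p = 0.0208). Ectoderm was then 8.76-fold below endoderm for ACTB and 6.99-fold for ACTG1.

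**Figure D3:**
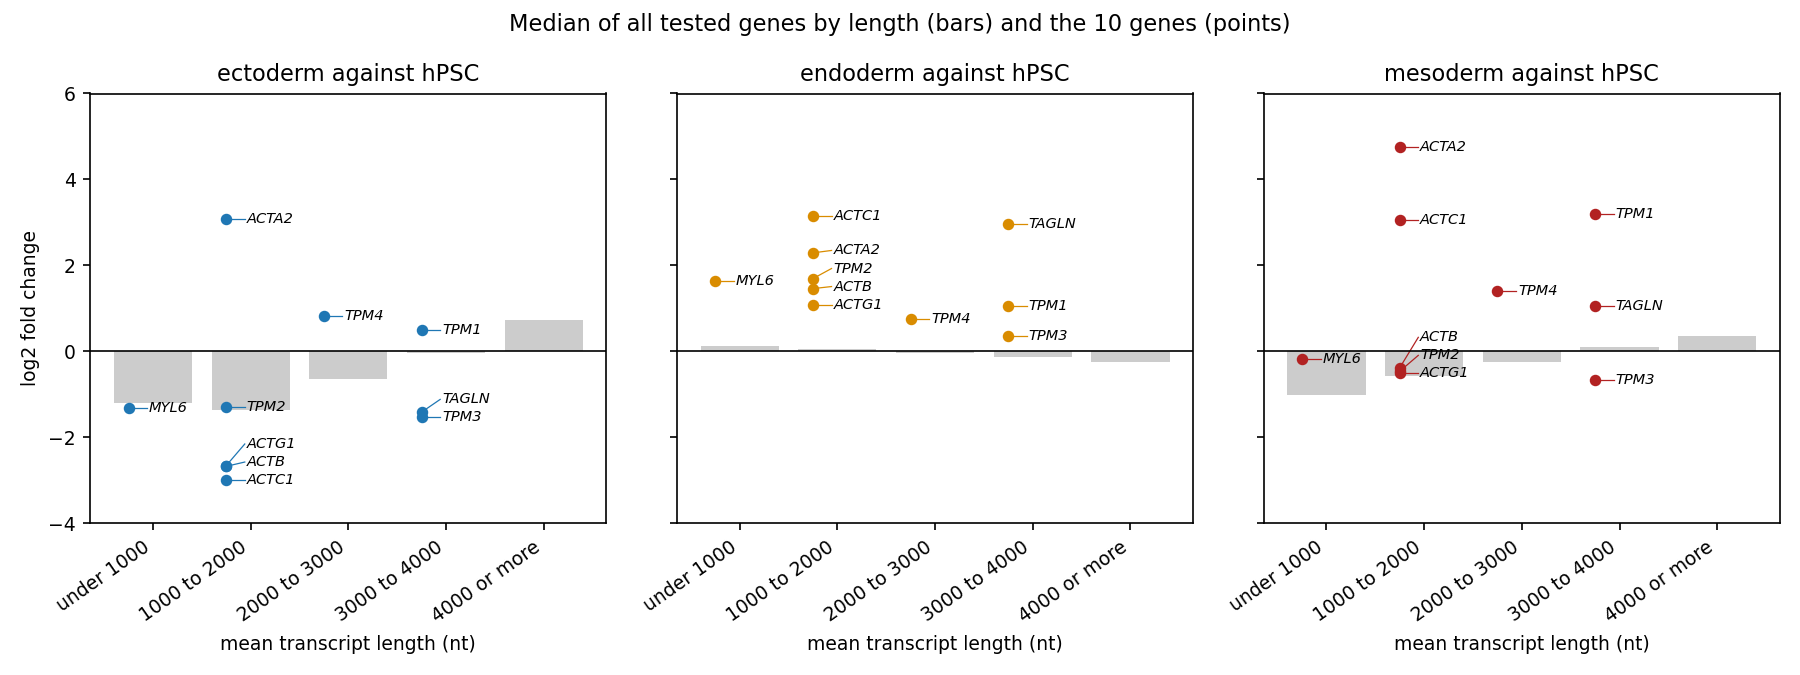
Median log2 difference from hPSC over all tested genes in classes of mean transcript length in nt (grey bars), with the 10 genes as points in their class, for each layer. The ectoderm medians run from -1.20 under 1000 nt to 0.74 at 4000 nt or more, while the endoderm medians stay between -0.25 and 0.13.

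TPM1 was the leading tropomyosin in mesoderm, TPM3 in hPSC and endoderm, and TPM4 in ectoderm. Levels of different genes are compared here as reads per kb of transcript, within the sum over TPM1 to TPM4. TPM1 made up 53.5% and 64.6% of that sum in mesoderm, against 13.7% to 24.0% in the other 6 libraries. TPM3 led in hPSC, at 43.0% and 68.4%, and in endoderm, at 40.2% and 45.1%. TPM4 led in ectoderm, at 44.5% and 47.5%, and ranged from 9.23% to 30.2% elsewhere, the extremes being the hPSC repeats. TPM2 held 16.5% and 19.3% in endoderm, where its share was highest, and 2.77% and 2.79% in mesoderm. These shares are descriptions and were not tested. The counts are whole reads per transcript, so dividing by length raises the share of genes with short transcripts, such as TPM2 at 1167 nt. In mean CPM the same gene led in each group. In endoderm the mean CPM was 140 for TPM2, 260 for TPM1, 323 for TPM4 and 938 for TPM3. The actin shares above are scaled by length in the same way.

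**Figure D4:**
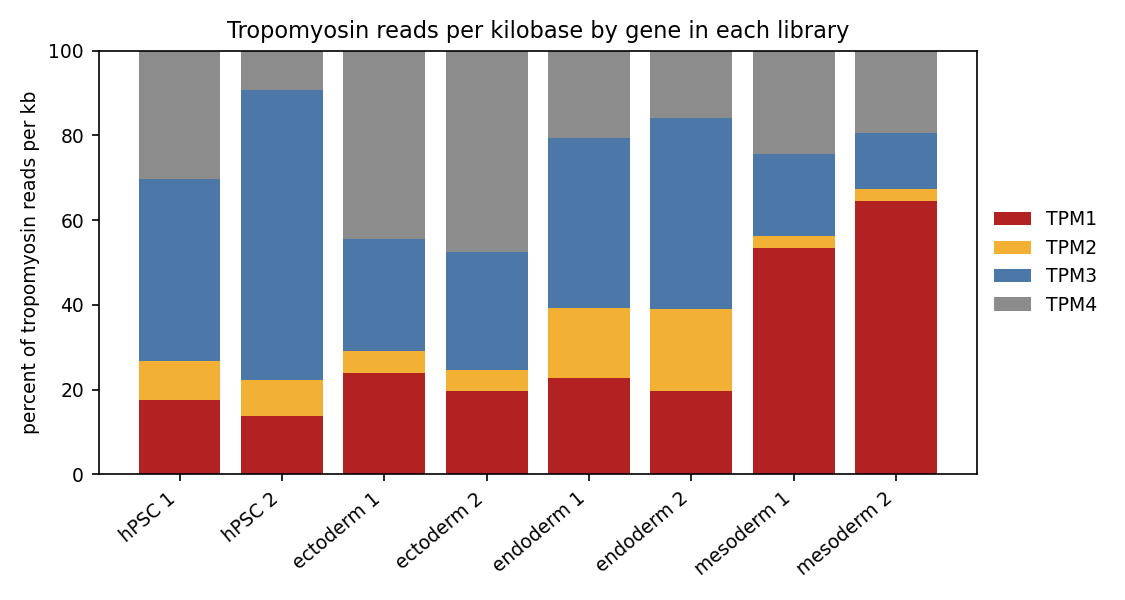
Share of each tropomyosin gene in the reads per kb of transcript from TPM1, TPM2, TPM3 and TPM4 together, in percent, for each of the 8 libraries. TPM1 holds 53.5% and 64.6% in mesoderm, TPM4 leads in ectoderm and TPM3 leads in hPSC and endoderm.

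TPM1 also changed its transcripts. By edgeR's diffSpliceDGE, which tests whether the transcripts of a gene shift against each other, TPM1 was called in 5 of 6 comparisons. These were ectoderm with hPSC (adjusted p = 0.0415), mesoderm with hPSC (0.0165), ectoderm with endoderm (1.13e-06), ectoderm with mesoderm (6.77e-06) and mesoderm with endoderm (7.74e-07). Of 2629 genes tested, 5.63%, 7%, 14.6%, 5.97% and 9.7% were called in those comparisons, in that order. Endoderm with hPSC was not called (adjusted p = 0.437), where 5.06% of genes were. ACTB was called in ectoderm with endoderm (adjusted p = 0.00646) and ectoderm with mesoderm (0.00969). ACTG1, MYL6 and TAGLN were tested and not called, and the other members had too few transcripts above the filter.

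The clearest TPM1 shift was in the first exon. The distal exon 1a begins the long tropomyosins and the proximal exon 1b, at chr15:63048439-63048707, begins the short ones, which are non-muscle forms. Reads from exon 1b were 14 of 84 and 13 of 71 in hPSC (16.7% and 18.3%), 19 of 614 and 14 of 951 in mesoderm (3.09% and 1.47%), 34 of 170 and 38 of 127 in endoderm (20.0% and 29.9%) and 22 of 312 and 15 of 202 in ectoderm (7.05% and 7.43%). No groups overlapped. Wilson 95% intervals ran from 0.879% to 4.78% in mesoderm and from 14.7% to 38.4% in endoderm, and these cover counting error only.

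The share of exon 1b averaged 25% ± 7.02 in endoderm and 2.28% ± 1.15 in mesoderm (SD, n = 2 each). An exact permutation test over the 105 ways to pair the 8 libraries gave p = 0.00952, the smallest it can give, and leaving out 1 library kept the exact p at 0.0381 or below. Adjusted over the 13 such tests made on these genes, that permutation p was 0.103. The main exon 1b model, ENST00000404484.9, fell against the rest of the gene in mesoderm, with a log2 difference of -3.50 from hPSC (diffSpliceDGE adjusted p = 0.000606) and -4.12 from endoderm (adjusted p = 3.11e-07). Of 6963 transcripts tested, 1.61% and 2.73% were called in those comparisons. In ectoderm and in endoderm against hPSC diffSpliceDGE called 0 of 31 tested member transcripts (5 and 3 at an unadjusted p under 0.05), where 1.26% and 1.09% of all transcripts were called. The mesoderm difference from hPSC was not called without hPSC repeat 2 (diffSpliceDGE adjusted p = 0.151) or mesoderm repeat 2 (0.141).

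Exon 2a of TPM1, printed above, was read in a 10-exon model, ENST00000357980.9, in which it stands before exon 2b and not in its place. It was in 0 of 70 and 2 of 58 reads in hPSC, 35 of 595 and 67 of 937 in mesoderm, 1 of 136 and 1 of 89 in endoderm and 2 of 290 and 2 of 187 in ectoderm. Mesoderm, at 5.88% and 7.15%, lay above all others, of which the highest was 3.45% from 58 reads. The exact permutation p was 0.133, and 0.0190 without either hPSC library. The model rose against the rest of the gene from endoderm to mesoderm by 2.98 (diffSpliceDGE adjusted p = 0.0404), and was lower in ectoderm than in mesoderm, at -2.99 (diffSpliceDGE adjusted p = 0.00664, with 1.71% of all transcripts called). Outside mesoderm no library had more than 2 of its reads, so the model passed the filter of 10 reads through mesoderm alone. These differences are given as values and lend the mesoderm share no further support. TPM1 exons 6b and 9a did not pass the test, with group means of 16.9% to 25.1% for 6b (exact permutation p = 0.390) and 11.6% to 22.4% for 9a (p = 0.381, exact permutation). For 9a the ectoderm shares of 20.9% and 23.8% lay above the mesoderm shares of 13.2% and 10.1%, and the exact permutation p was 0.0381 without hPSC repeat 1 and 0.0476 without hPSC repeat 2.

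Models that hold an intron, with an exon that spans a whole intron of another model, are not all incompletely spliced. The reference ACTG1 model ENST00000573283.7 is among them. Such models took 37.4% and 51.7% of TPM1 reads in ectoderm, 19.1% and 13.2% in hPSC, 7.47% and 11.5% in endoderm, and 20.4% and 16.8% in mesoderm. Ectoderm lay above all others (exact permutation p = 0.0286, adjusted 0.103), a share looked at after the transcript values were seen. Each of the 8 TPM1 models that hold an intron was assembled in 1 group alone. The share thus depends on which group supplied these models, and its permutation p gives it no independent support. The same share was tested in 3 other genes. In ACTB it was 0.914% and 1.52% in ectoderm and 0.319% to 0.455% elsewhere (exact permutation p = 0.0476, adjusted 0.103). In ACTG1 the ectoderm mean of 51.5% was below the 55.1% of hPSC (exact permutation p = 0.857), and in TPM2 the ectoderm libraries were at 13.2% and 34.6% (exact permutation p = 0.648). One such TPM1 model, ENST00000559831.5 of 11344 nt, was higher against the rest of the gene in ectoderm than in endoderm by 4.43 (diffSpliceDGE adjusted p = 0.00217, with 4.7% of transcripts called). Mean transcript length per read was also highest in the ectoderm libraries, and its part in this share was not tested. Models with 82.2% of TPM1 reads overlap an antisense gene.

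TPM2 exon 6a, the smooth and non-muscle exon printed above, was in 8 of 21 and 7 of 22 reads in hPSC, 10 of 16 and 17 of 22 in mesoderm, 1 of 75 and 10 of 68 in endoderm and 9 of 33 and 1 of 17 in ectoderm. The mesoderm shares of 62.5% and 77.3% lay above all others and the endoderm shares of 1.33% and 14.7% were low, overlapping ectoderm. The Wilson 95% interval was 38.6% to 81.5% for mesoderm repeat 1 and 8.19% to 25% for endoderm repeat 2. The exact permutation p was 0.0381, adjusted 0.103, and it rose to 0.0571 to 0.0667 without hPSC repeat 1, hPSC repeat 2 or endoderm repeat 1. So the gene whose total was highest in endoderm was read there mostly with exon 6b, in ENST00000329305.6, and in mesoderm mostly with exon 6a, in ENST00000378292.9. The last exon 9a of TPM2 did not pass the test (exact permutation p = 0.571).

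The MYL6 alternative exon was in 34 of 156 and 35 of 188 reads in hPSC (21.8% and 18.6%), 64 of 211 and 38 of 136 in mesoderm (30.3% and 27.9%), 25.7% and 24.7% in endoderm and 26.6% and 23.5% in ectoderm. The form without it was the major one in every library. The mesoderm libraries lay above and the hPSC libraries below all others, and the means of these groups differed by 8.93 percentage points. The exact permutation p was 0.0286, adjusted 0.103, and reached 0.124 without mesoderm repeat 1, 0.105 without hPSC repeat 2, and 0.0571 and 0.0667 without endoderm repeat 1 and 2. diffSpliceDGE did not call MYL6 in mesoderm against hPSC (adjusted p = 0.254). Skipping of the third MYL6 exon, at chr12:56159587-56159730, averaged 6.40% in hPSC, 5.08% in endoderm, 2.70% in ectoderm and 2.63% in mesoderm (exact permutation p = 0.0571).

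**Figure D5:**
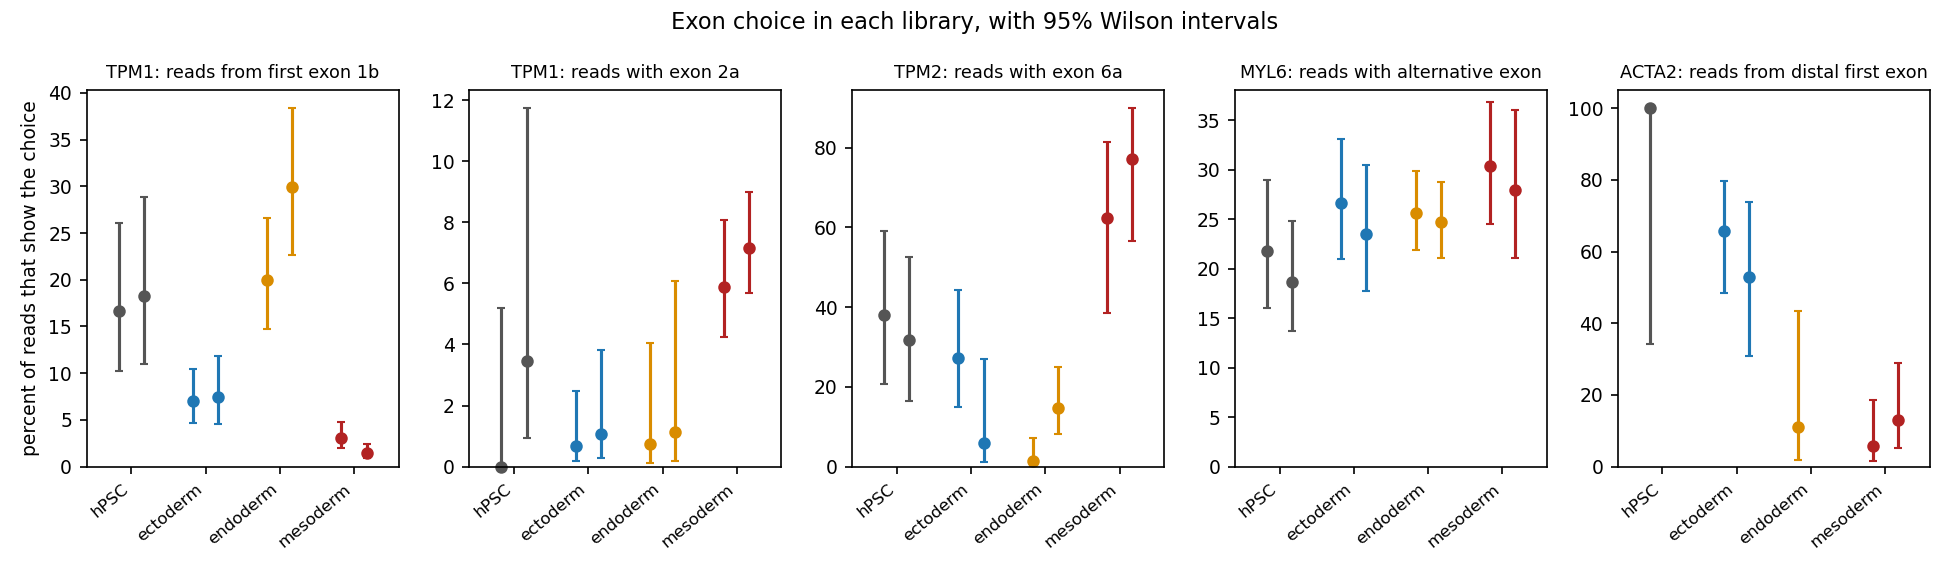
Share of reads with each alternative form, in percent of the reads that show the choice, with 1 point per library and Wilson 95% intervals as bars. The proximal first exon of TPM1 is lowest and TPM2 exon 6a highest in mesoderm, and the MYL6 alternative exon runs from 18.6% in hPSC to 30.3% in mesoderm.

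TPM3 and TPM4 showed 1 main form each. ENST00000368533.8, a short tropomyosin from a proximal first exon, had 98.9% to 99.6% of TPM3 reads in the group means. The TPM3 form with an extra exon before the last stood at 0.364% to 1.13%, on 4 to 10 reads a group (exact permutation p = 0.0476, adjusted 0.103, and up to 0.0857 with 1 library left out). ENST00000643579.2, also a short form, had 97.2% to 98.9% of TPM4 reads. No model from a distal first exon was assembled for either gene.

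Promoter windows from RefSeq (GRCh38.p14, 250 bases before to 50 after a start site) were used for 8 of the 10 genes. Windows of ACTB, TAGLN and the distal start of TPM1, which most TPM1 reads use, were not searched. The CArG box was searched on both strands as an exact match of 10 letters, CC, a run of A or T, and GG. Boxes with a mismatch were not searched, so a window without a match may still hold such a variant. An exact box was in 3 of 15 windows of these genes and in 454 of 35116 windows in the table, or 1.29%. The stretches with a box are shown because SRF binds this element, with the box in capitals. The box begins 109 bases before the ACTC1 start, 94 before the ACTG1 start and 173 before the distal TPM4 start, which no assembled TPM4 model used.
ACTC1 promoter, minus strand, chr15:34795629-34795678: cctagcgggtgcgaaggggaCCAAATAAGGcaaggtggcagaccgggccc
ACTG1 promoter, minus strand, chr17:81512864-81512913: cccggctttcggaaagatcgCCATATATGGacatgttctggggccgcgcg
TPM4 distal promoter, plus strand, chr19:16067345-16067394: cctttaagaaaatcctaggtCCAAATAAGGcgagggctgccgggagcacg

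Among the windows searched, ACTC1 and ACTG1 were the 2 genes with a box at a start that their assembled models use. Against hPSC, the log2 values of ACTC1 were -3.00 (ectoderm), 3.15 (endoderm) and 3.06 (mesoderm), all called. Those of ACTG1, with the layers in the same order, were -2.66, 1.09 and -0.52, of which only the ectoderm value was called. The part of the box in these values was not tested.

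Other genes of the same pathway moved in both directions. Of 20 tested smooth muscle and SRF target genes, 5 were higher and 8 lower in ectoderm than in hPSC (median log2 -0.28), 5 higher and 3 lower in endoderm (median 0.00) and 7 higher and 2 lower in mesoderm (median 0.81). Single libraries moved these counts, to 5 lower in ectoderm without ectoderm repeat 1, to 9 higher in endoderm without hPSC repeat 1 and 5 lower without hPSC repeat 2, to 0 lower in endoderm without either endoderm library (and 3 higher without endoderm repeat 2), and to 1 lower in mesoderm without any 1 library other than hPSC repeat 1. In ectoderm the calponins CNN1 (-3.08) and CNN2 (-2.50), the transgelin TAGLN2 (-2.98) and the focal adhesion protein ZYX (-2.16) were lower, ZYX not being called without hPSC repeat 1 (edgeR adjusted p = 0.0709). In endoderm TAGLN2 (2.61), the light chain MYL9 (1.91) and the myosin heavy chain MYH9 (1.34) were higher. The kinase MYLK was called lower there (-2.22), a call lost without any 1 of hPSC repeat 1, endoderm repeat 1 and endoderm repeat 2. In mesoderm the filament binder CALD1 (2.33), MYLK (1.73) and SMTN (1.56) were higher and the adhesion protein VCL (-1.57) lower, MYLK not being called with known transcripts alone (edgeR adjusted p = 0.0831).

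These mesoderm values stand beside those of other cell types. Markers of smooth muscle summed to 284 and 294 CPM in mesoderm and 79.6 to 108 CPM elsewhere. DES was at 0 in mesoderm, MYH11 and DES in endoderm, and MYOCD in hPSC and ectoderm. Of these 6 markers 2 were tested, and 2 were called higher in mesoderm than in hPSC. One of them, CNN1, was not called with DESeq2 (log2 1.26, adjusted p = 0.104), and its edgeR log2 value was 0.79 without hPSC repeat 1. Markers of cardiac and skeletal muscle summed to 71.6 and 89.3 CPM in mesoderm and 47.8 to 64.9 CPM in endoderm, from 3 genes, MYH6, MYH7 and MYOD1 not being among the genes of the table. Most of the endoderm sum was NKX2-5, which had 34 and 25 reads there. All 6 tested markers of amnion and trophoblast were higher in mesoderm than in hPSC. The part of any of these cell types in the TPM1, ACTC1 and ACTA2 results was not tested.

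Of 31 tested actin assembly genes, 7 were higher and 13 lower in ectoderm (median -0.57), against 23.8% and 24.8% of all tested genes. Endoderm had 9 higher and 1 lower (median 0.43), against 13.4% and 13.7%. Mesoderm had 7 higher and 4 lower (median 0.27), against 16.9% and 18.2%. On library totals ectoderm had 12 higher and 11 lower, endoderm 5 and 4, and mesoderm 8 and 4, and with the length trend removed 9 and 9 in ectoderm. Without hPSC repeat 1 there were 11 higher in ectoderm and 7 lower in mesoderm, without endoderm repeat 1 there were 5 higher in endoderm, without mesoderm repeat 1 there was 1 lower in mesoderm, and without mesoderm repeat 2 there were 4 higher and 2 lower. The single gene lower in endoderm became 2 without either hPSC library. In ectoderm the ARP2/3 subunits ARPC1B (-2.99) and ARPC4 (-2.19) and the filament-severing CFL1 (-2.22) were lower. The membrane linker RDX was higher in ectoderm (3.37), endoderm (2.11) and mesoderm (3.09), although its endoderm call was lost without endoderm repeat 1 (edgeR adjusted p = 0.0702). TMSB10, which binds actin monomers, and WDR1, a cofilin partner, were higher in endoderm (1.57 and 1.42), and the capping subunit CAPZA1 was lower there (-1.87). In mesoderm CAP2 (2.88) and the formin DIAPH3 (1.85) were higher. TMSB15A had 24 reads in hPSC and 1 in mesoderm, a call lost without mesoderm repeat 1 (edgeR adjusted p = 0.0725).

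Among 5 tested other actins and myosin light chains, ectoderm had 0 higher and 2 lower, endoderm 1 and 1, and mesoderm 1 and 2. With 1 library left out these ran from 1 to 3 lower in ectoderm, 1 to 3 higher and 0 to 1 lower in endoderm, and 0 to 1 higher and 1 to 2 lower in mesoderm. The skeletal actin ACTA1 was called lower in ectoderm (-1.96), endoderm (-1.43) and mesoderm (-1.18). The endoderm call was lost without endoderm repeat 2 (edgeR adjusted p = 0.162), the mesoderm call without hPSC repeat 2 or either mesoderm library, with DESeq2 and on library totals, and the ectoderm and mesoderm calls with the length trend removed. MYL6B was lower in ectoderm (-1.5) and mesoderm (-1.79), its ectoderm call being lost without ectoderm repeat 1 (edgeR adjusted p = 0.0510) and, at -0.33, with the length trend removed (edgeR adjusted p = 0.409). MYL12B was called higher in mesoderm (0.90), but not without hPSC repeat 1 or either mesoderm library. The atrial light chain MYL7 had 54 and 43 reads in endoderm and 0 in hPSC, at least 29.8-fold higher against 3 reads over the group.

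Of 5 tested cardiac and skeletal muscle genes, ectoderm had 0 higher and 1 lower than hPSC, endoderm 1 and 1, and mesoderm 2 and 2. With 1 library left out, which let up to 7 genes be tested, these ran from 0 to 2 lower in ectoderm and from 2 to 3 higher and 1 to 2 lower in endoderm. The cardiac troponin TNNT2 was higher in mesoderm (2.85) and the skeletal troponin TNNT1 lower (-1.91). The calcium channel RYR2 had 12 and 16 reads in mesoderm and 1 in hPSC, a pooled ratio of 29.3 (counting interval 4.84 to 1200). NKX2-5, a cardiac transcription factor, had 34 and 25 reads in endoderm and 0 in hPSC, at least 18.1-fold higher. TNNI3 had 51 reads in hPSC, 0 in endoderm and 1 in mesoderm.

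Of 9 tested splicing regulators known to act on such exons, 4 were higher and 1 lower in ectoderm (median 0.72), and 1 was higher and 0 lower in both endoderm and mesoderm. On library totals ectoderm had 6 and 0 and endoderm 0 and 1. Without hPSC repeat 1 there were 4 higher in mesoderm and 3 higher and 1 lower in endoderm, without mesoderm repeat 2 there were 2 higher in mesoderm, and without either endoderm library there were 0 higher in endoderm. The gene lower in ectoderm, ESRP2 (-1.5), was not called without hPSC repeat 1 or either ectoderm library. MBNL2, which binds muscle-type exons, had 2 reads in hPSC, 169 in ectoderm and 99 in mesoderm, pooled ratios of 42.5 (counting interval 11.6 to 354) and 51.7 (13.9 to 433). CELF2 (2.22), QKI (2.20) and PTBP2 (2.19) were higher in ectoderm, CELF2 and PTBP2 not being called with the length trend removed (edgeR adjusted p = 0.0594 and 0.0694). RBFOX2 was called higher in endoderm (0.97), but not without hPSC repeat 1 or either endoderm library.

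The genes with the most similar profiles were found by the root mean square distance between centred log2 CPM values over the 8 libraries. For these profiles alone CPM was on the TMM scale, with 2 reads added to each count. ACTB was closest to HMOX2 (0.15), ACTG1 (0.18) and HLA-C (0.23). ACTC1 was closest to the keratins KRT18 (0.44) and KRT8 (0.51), of which KRT18 averaged 4436 CPM in mesoderm, 2783 in endoderm, 610 in hPSC and 133 in ectoderm. TPM1 was closest to ANKS1A (0.31) and TENM4 (0.32), TPM2 to CD63 (0.15), TPM3 to PSMF1 (0.066), TPM4 to RAB22A (0.14), TAGLN to PPT2 (0.35) and ACTA2 to FKBP9 (0.47). MYL6 was closest to ABHD16A (0.14) and to MYL9 (0.14), the regulatory light chain of the same myosin. All profiles share libraries and depth.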

How the data were processed

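RNA reads were PacBio Sequel II long reads of 8 libraries, with minimap2 and StringTie named and GRCh38 as the build, per the submitters' processing notes. Their versions, the annotation release, the counter, strand use and the treatment of reads with several placements are not given in the sources used here. The deposited values are whole read counts per transcript of a combined assembly. The endoderm columns hold deposited values recorded under the unit of expected counts, since their names failed an automatic unit check, but these are whole numbers and were used like the others, with nothing to round.

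Transcript counts were summed per gene and tested with edgeR 4.0.16 in R 4.3.3 (TMM, filterByExpr with a minimum count of 10, quasi-likelihood test, 1 fit of 8 libraries, Benjamini-Hochberg adjusted p under 0.05). CPM is relative to the library total, while log2 differences are on the TMM scale. Against hPSC, the median gene stood at -0.01 in ectoderm, -0.13 in endoderm and 0.01 in mesoderm on the TMM scale, and at 0.43, -0.41 and 0.29 on library totals. Transcript shifts were tested with diffSpliceDGE, and splice shares with an exact two-sided permutation of the group labels. A read counted for a splice form if its model has an intron of that form alone and no exon spanning the choice. Wilson intervals and the 3-read floor cover counting error only, since these reads carry no molecular identifiers in the files. The steps were tested on simulated data: of 200 genes changed 4-fold between ectoderm and hPSC among 9738, 161 (80.5%) were recovered, with 8 other calls.

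The members and lists were chosen with earlier results of these data known. Every member is named, with transcripts at 10% or more of a gene's reads, up to 3 nearest genes, and up to 4 called genes per list and comparison by size of change. Alternatives were other normalizations, filters and tools, known transcripts, each group's own assembly, a replicate block and each library left out. Scaling by library totals and removing the length trend were added after seeing the data. DESeq2 1.42.0 was an alternative.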

Additional observations from a re-analysis of the deposited data

Results flagged for a closer look

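Some genes were called in opposite directions against hPSC in different layers. Since those calls share the hPSC libraries, the direction and size of the direct difference between the layers follow from them, so the differences are given as values and lend the calls no further support. From endoderm to ectoderm the log2 difference was -4.14 for ACTB, -4.37 for TAGLN, -2.99 for TPM2, -2.95 for MYL6 and -6.15 for ACTC1. From mesoderm to ectoderm it was -6.06 for ACTC1. The ectoderm calls of TPM2 and MYL6 against hPSC did not hold with the length trend removed.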

How the results depend on the processing

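Of 900 values (10 genes, 6 comparisons, 15 alternatives), 830 kept their side of the threshold and, where called, their direction, 39 gained a call, 30 lost one, and 1 reversed, MYL6 in mesoderm against hPSC at 0.80 with the length trend removed (edgeR adjusted p = 0.0366). DESeq2 called 3356 genes in ectoderm, 1836 in endoderm and 2315 in mesoderm against hPSC and 2015 in ectoderm against mesoderm, where edgeR called 5274, 2946, 3810 and 3839. The cause was not tested. Leaving out 1 library gave 3293 to 5960, 1455 to 4067, 2012 to 5084, 5331 to 8205 (ectoderm with endoderm), 1780 to 5631 (ectoderm with mesoderm) and 3390 to 6487 (mesoderm with endoderm) calls.

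Genes with transcript shifts, in the same order of comparisons, were 148, 133, 184, 385, 157 and 255, and ranged over 12 to 307, 24 to 211, 37 to 312, 141 to 666, 40 to 358 and 78 to 500 with 1 library left out. A minimum count of 20, which tests fewer transcripts, gave 83, 84 and 221 for ectoderm and endoderm against hPSC and ectoderm with endoderm. Known transcripts alone gave 93, 74, 117, 237 and 101 for all but mesoderm with endoderm.

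With the replicate number as a block, 98 genes shifted in ectoderm against hPSC. Deviations of same-numbered libraries from their group means correlated at -0.03 to 0.16. Such values cannot exclude a batch shared by number, and the labels do not say whether the numbers pair the libraries.

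Gaps were taken between the 2 groups whose means were highest and lowest with all 8 libraries, and these groups were kept in every setting. In percentage points, the gap ranged with 1 library left out over 7.34 to 10.5 (MYL6 exon), 17.7 to 27.6 (TPM1 exon 1b), 5.00 to 6.27 (exon 2a), 5.17 to 11.2 (6b), 9.19 to 12.2 (9a), 54.5 to 69.3 (TPM2 6a), 3.45 to 17.7 (TPM2 9a) and 0.683 to 0.844 (TPM3). In each group's own assembly the TPM3 gap, between mesoderm and endoderm, was 0.0 (exact permutation p = 0.143 over the 4 groups). First exon choices of TPM3 and TPM4 were not run, since no distal model was assembled. Depth limits ACTA2, ACTC1 in ectoderm and TPM2 exon 6, each on few reads.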
